A study of Mus musculus with 11 samples.

Results

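Retinoic acid, the signalling form of vitamin A, acts through a small set of carriers, receptors and enzymes, and 9 genes that encode them were followed across the sensory nuclei of the newborn mouse thalamus. They are the cellular retinoic acid binding proteins Crabp1 and Crabp2, the retinoic acid receptors Rara, Rarb and Rarg, the retinoid X receptors Rxra, Rxrb and Rxrg, and the retinoic acid hydroxylase Cyp26b1. They were taken by name from the 54752 gene identifiers counted, and each name matched 1 identifier. Bulk RNA-seq had been made at postnatal day 0 from neurons of the dorsolateral geniculate nucleus (dLG, vision; 4 libraries), the ventral posteromedial nucleus (VPM, touch of the face; 4 libraries) and the hearing nucleus, the ventral medial geniculate (MGv; 3 libraries). All 11 libraries came from ICR/CD-1 pups of genotype Gbx2CreER-IRES-EGFP/+::R26lsl-tdTomato/+, in which Cre induced by tamoxifen before birth under the control of Gbx2 leaves thalamic neurons red. The nuclei were dissected, red cells were sorted, and the tissue of 4 brains was pooled for each library. The cells are therefore those in which Gbx2 was active when Cre was induced, and a library averages over 4 animals. A lower level in such a bulk sample can come from fewer cells expressing a gene or from less RNA per cell, which cannot be told apart.

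Retinoic acid is made from vitamin A by the retinaldehyde dehydrogenases (Aldh1a1, Aldh1a2, Aldh1a3) and cleared by the CYP26 enzymes. Inside a cell CRABP1 and CRABP2 carry it, CRABP2 handing it to receptors in the nucleus and CRABP1 being tied more to its turnover in the cytoplasm. A receptor of the RAR family, paired with one of the RXR family, sits on DNA at pairs of short repeated half-sites, with co-repressors bound in the absence of ligand and co-activators in its presence. Rarb and Cyp26a1 are textbook targets of this pathway, and retinoic acid is known in the forebrain for its part in patterning and in neuronal differentiation.

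The promoters of these genes were searched for such repeats, since Rarb and Cyp26a1, known targets of the pathway, differed between the nuclei here. The windows were RefSeq promoters of build GRCm38.p6, running from 250 bases before to 50 bases after a start. A half-site was the consensus AGGTCA, or the form AGTTCA, or the form that reads GGGTCA, or else the form that reads GGTTCA. Each search took any pair of these 6-base half-sites in the same direction, spaced by 1, 2 or 5 bases of any kind, on both strands. Of 32851 promoters, 193 (0.588%) held at least 1 such pair, and 32 (0.0974%) held one spaced by 5. Counted by gene, 186 of 27025 (0.688%) held at least 1 pair and 31 (0.115%) one spaced by 5. Since Rarb and Cyp26a1 prompted the search, no enrichment is read from their matches. A promoter was at hand for 8 of the 9 genes (15 promoters), and 1 of these genes, Rarb, had a match. Among the 15 other genes of the pathway named below, 11 had a promoter and Cyp26a1 and Bco1 had a match. The matches of Rarb and Cyp26a1 are shown 5′ to 3′ on the strand of the gene, up to the base before the start, with the half-sites in capitals.
Rarb: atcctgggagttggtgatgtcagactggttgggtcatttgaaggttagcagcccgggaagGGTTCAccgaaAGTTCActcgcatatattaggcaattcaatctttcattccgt
Cyp26a1: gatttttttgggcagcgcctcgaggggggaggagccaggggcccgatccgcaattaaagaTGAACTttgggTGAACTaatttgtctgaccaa

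The Rarb window is chr14:16575477-16575589 on the minus strand, at a start inside the gene, and its pair of half-sites begins at position -53 from that start. The Cyp26a1 window is chr19:37697716-37697807 on the plus strand. There the half-sites lie on the opposite strand, so the capitals read as their reverse complement, and the pair begins at position -32. In the promoter of Bco1, which encodes a carotene-cleaving enzyme, the half-sites were spaced by 1 base. A match of letters in such a window is a description and does not show that a receptor binds there.

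The libraries held between 10175653 and 23559130 counts, and those of MGv (at most 13164909) were shallower than those of dLG and VPM (at least 15867673). Levels below are CPM (a gene's counts relative to the total of its library) after TMM scaling (trimmed mean of M values). A count of 3, taken as the floor, corresponds to between 0.127 and 0.295 CPM and covers counting error only. The summed level of 7 pan-neuronal markers was 8770 to 11500 CPM and that of 7 markers of thalamic relay neurons 2040 to 3620 CPM, whereas defining markers of astrocytes (Aqp4, at most 1.58 CPM) and of the oligodendrocyte lineage (Sox10, at most 0.0475 CPM; Pdgfra, at most 0.381 CPM) were low in every library. Among the relay markers, Gbx2, whose activity selected the cells, was at 272 to 332 CPM in MGv. It was at 14.2 to 51.6 CPM in dLG and 27.3 to 45.7 CPM in VPM. Tcf7l2 and Calb2 were also above the other nuclei in every MGv library, while Lef1 and Lhx9 were below them. The part of Gbx2 in the levels of the 9 genes was not tested. A library in each nucleus (dLG replicate 2, VPM replicate 3 and MGv replicate 1) stood apart by the heat shock gene Hspa8, which was at 3.05 to 5.55 CPM there and at 159 to 580 CPM in the other 8. Where leaving these libraries out changed a call of a gene named below, or the size of a difference by much, the value without them is given.

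Crabp2 was the most variable of the 9 genes, at its highest in MGv, lower in VPM and lowest in most libraries of dLG. Rarb followed the same order at a much lower level, Crabp1 was lower in dLG than in the other nuclei, and Rara was lower in MGv. The RXR genes and Rarg had levels that overlapped between most nuclei, and Cyp26b1 was at the floor. The gene set was chosen with earlier results of these data in view, including the high level of Crabp2 in MGv, so the values that follow are a description: no p-value of these genes is printed, and calls are named and counted as a description. Of the 9 genes, 8 passed the filter on low counts, and Cyp26b1 did not.

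**Figure D1:**
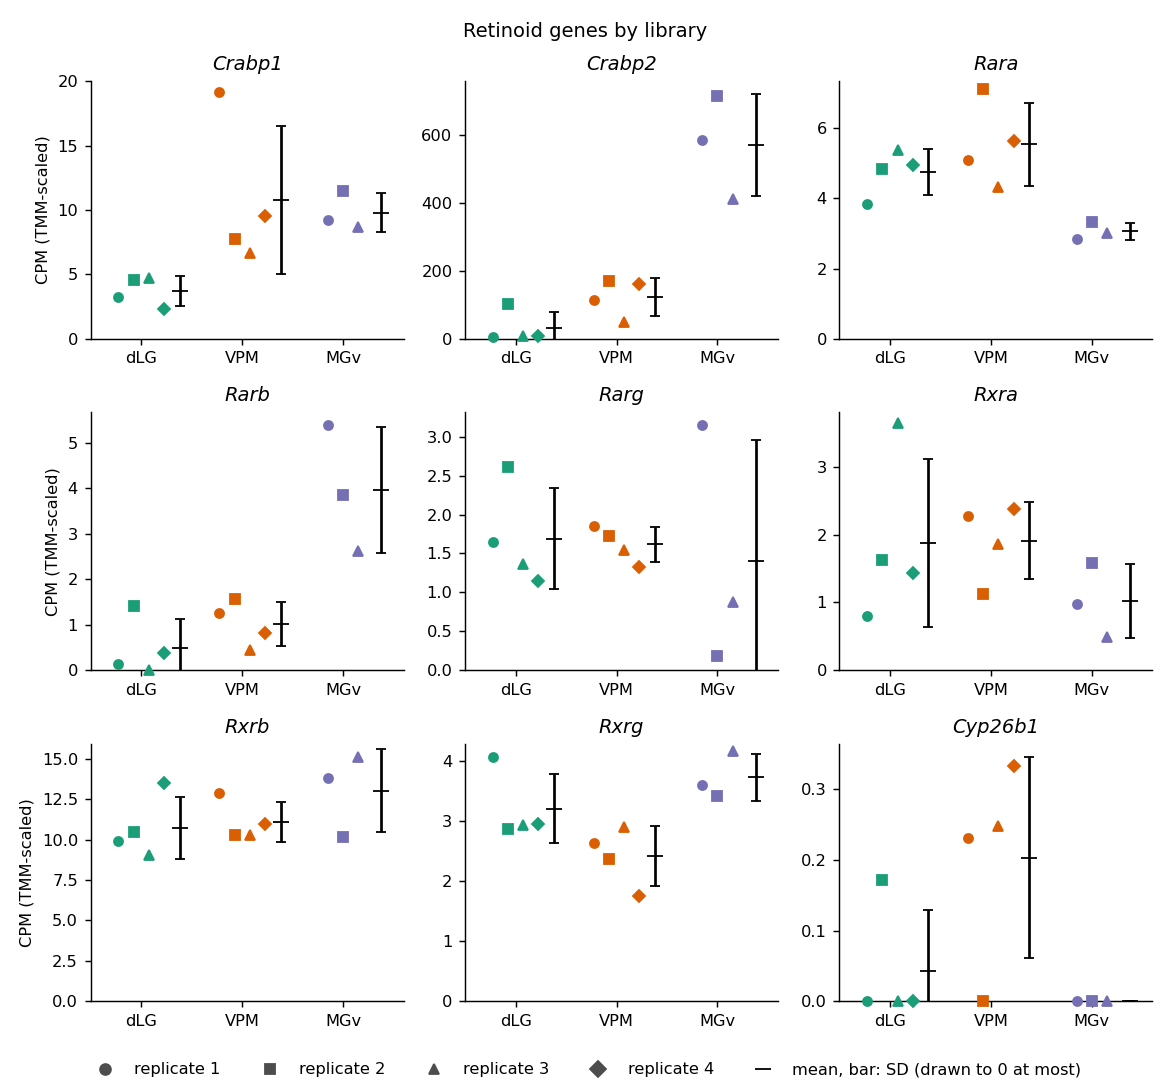
Level of each of the 9 genes in every library, in TMM-scaled CPM on a linear axis of its own, by nucleus (dLG in green, VPM in orange, MGv in purple; marker shapes give the replicate number), with the mean and SD in black. Crabp2 lay between 412 and 714 CPM in MGv, above every other library, and dLG replicate 2 (102.9 CPM) sat far from the other dLG libraries.

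A gene is said below to be called when its adjusted p was under 0.1 in edgeR's quasi-likelihood test over the 15907 genes tested. Between dLG and VPM, 1 of the 8 genes was called (Crabp1, higher in VPM), where 10.7% of all genes were (4.97% with dLG on top and 5.74% with VPM on top). Between dLG and MGv, 3 were called (Crabp1, Crabp2 and Rarb, each higher in MGv), against 16.1% of all genes (8.61% with dLG on top and 7.49% with MGv on top). Between VPM and MGv, 2 were called (Crabp2, higher in MGv, and Rara, higher in VPM), against 19.0% of all genes (10.4% with VPM on top and 8.56% with MGv on top). The libraries of the nuclei did not overlap for 1, 4 and 4 of the 8 genes in these comparisons, against 14.6%, 23.8% and 25.1% of all genes. The median log2 difference over the 8 genes was -0.14 (dLG minus VPM), -0.25 (dLG minus MGv) and -0.05 (VPM minus MGv), beside 0.005, 0.015 and 0.022 over all genes. The comparisons share libraries, and the gene set was picked by them in part, so nothing is read from the counts.

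**Figure D2:**
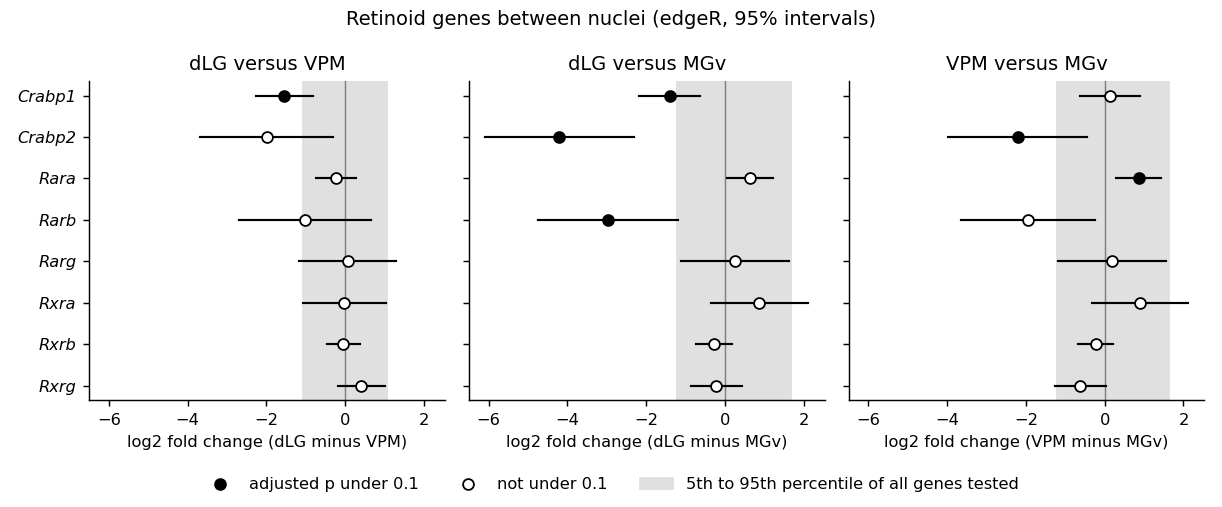
Log2 fold change of the 8 genes tested in each comparison (first nucleus minus second), with 95% intervals from edgeR. Filled circles passed an adjusted p of 0.1, and the grey band runs from the 5th to the 95th percentile of the 15907 genes. Crabp2 and Rarb lay beyond the band in all comparisons with MGv, on the side of higher levels in MGv.

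Crabp2 (ENSMUSG00000004885, chromosome 3, 87948666 to 87953376, plus strand), the binding protein that delivers retinoic acid to receptors, stood in MGv at 584, 714 and 412 CPM (replicates 1 to 3). In VPM its 4 values were 113, 169, 49.3 and 160 CPM. In dLG they were 4.87, 102.9, 7.67 and 7.39 CPM. All MGv libraries were thus above all others, whereas dLG replicate 2 fell inside the range of VPM and was far above the other dLG libraries. The mean levels were 570 ± 151 CPM in MGv (SD, n = 3), 123 ± 54.9 in VPM (n = 4) and 30.7 ± 48.1 in dLG (n = 4). MGv exceeded dLG by 4.21 ± 0.88 on the log2 scale (SE), or 18.5-fold, and VPM by 2.21 ± 0.82, or 4.64-fold. VPM exceeded dLG by 1.99 ± 0.79, or 3.98-fold, which was not called.

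The size of the dLG differences for Crabp2 turned on a single library. Without dLG replicate 2 the mean in dLG was 6.64 ± 1.55 CPM (SD, n = 3), the MGv to dLG difference was 6.42 ± 0.46 and the VPM to dLG difference 4.22 ± 0.41 on the log2 scale, and the latter was then called. With all of the 3 libraries low in Hspa8 left out, the same differences were 6.41 ± 0.30 and 4.46 ± 0.27. The difference between VPM and MGv kept its size, between 1.95 and 2.41, whichever library was left out. Its call was lost, however, without any single library of VPM or of MGv and under DESeq2.

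The library that carried high Crabp2 in dLG also stood apart more broadly. For each dLG library, the genes called in a fit that left this library out were examined. Genes called higher in MGv or VPM than in dLG this way are picked for low values in the remaining dLG libraries. For them, 25% is not the expected share. The sets of the other dLG libraries were called with replicate 2 in the fit, so the shares are not a fully like comparison. Of 1267 genes higher in MGv than in dLG, 67.2% had their highest dLG value in replicate 2, against 19.9% to 24.7% for the other dLG libraries over their own genes. Of 1031 genes higher in VPM than in dLG, the share was 61%, against 25.6% to 31.1%. Over all genes tested, replicate 2 was the highest in 28.7% and the others in 20.4% to 26.7%. Of 1295 genes higher in MGv than in VPM, replicate 2 was highest in 41.2%, against 18% to 24.4% for the others, and of 1716 genes higher in VPM than in MGv in 23.7%. The part of this shift in the results for Crabp2 and Rarb was not tested beyond the values given without the library.

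**Figure D3:**
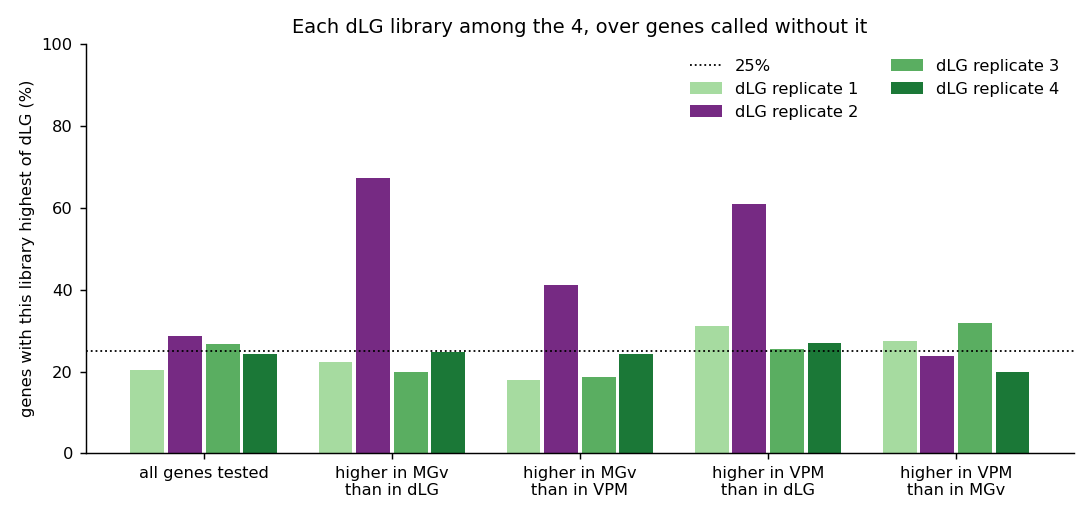
For each dLG library, the percentage of genes in which it was the highest of the 4 dLG libraries, over all genes tested and over genes called between nuclei in a fit without that library. The dotted line marks 25%, which is not the expected share for genes called between dLG and another nucleus. Replicate 2 (purple) reached 67.2% of the genes higher in MGv than in dLG, 61% of those higher in VPM than in dLG and 41.2% of those higher in MGv than in VPM, against 28.7% of all genes.

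Crabp1 (ENSMUSG00000032291, chromosome 9, 54764748 to 54773110, plus strand), the other carrier, was low in every dLG library. Its values were 3.22, 4.59, 4.68 and 2.29 CPM in dLG, 19.2, 7.78, 6.63 and 9.5 CPM in VPM, and 9.23, 11.5 and 8.64 CPM in MGv. Every VPM and MGv library was above every dLG library, and VPM and MGv overlapped, VPM replicate 1 being the highest of all. VPM exceeded dLG by 1.54 ± 0.34 and MGv exceeded dLG by 1.40 ± 0.36 on the log2 scale (SE), or 2.91-fold and 2.64-fold. Between MGv and VPM the difference was -0.14 ± 0.36, with a 95% interval from -0.91 to 0.63. Both calls against dLG held whichever library was left out and in all 21 alternative analyses. Unlike Crabp2, Crabp1 in dLG replicate 2 was within the range of the other dLG libraries.

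Per kilobase of exon, which allows genes to be compared, Crabp2 was the most abundant of the 9 genes, at a mean of 160 RPKM over the 11 libraries, and Crabp1 came next at 9.89 RPKM. The ratio of Crabp2 to Crabp1 on this scale was 38.4, 37.7 and 28.9 in MGv. It was 3.58, 13.2, 4.51 and 10.2 in VPM, and 0.916, 13.6, 0.995 and 1.96 in dLG. The carriers were thus at similar levels in 3 of the 4 dLG libraries, while Crabp2 predominated in VPM and more so in MGv.

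Among the receptors of retinoic acid, Rarb (ENSMUSG00000017491, chromosome 14, 16430839 to 16819156, minus strand), the receptor gene that retinoic acid itself induces in many tissues, was highest in MGv. It stood there at 5.40, 3.86 and 2.62 CPM. In VPM its values were 1.25, 1.56, 0.434 and 0.807 CPM, and in dLG 0.122, 1.42, 0 and 0.381 CPM. The MGv libraries were above all others, VPM and dLG overlapped, and dLG replicate 2 was again the highest of its nucleus while VPM replicate 3 was the lowest of VPM, as it was for Crabp2. These levels rested on 27 to 72 counts in MGv, 7 to 36 in VPM and 0 to 33 in dLG. MGv exceeded dLG by 2.98 ± 0.83 on the log2 scale (SE), or 7.87-fold, and VPM by 1.95 ± 0.79, or 3.87-fold, the latter not called. The VPM to dLG difference was 1.02 ± 0.78, with a 95% interval from -0.66 to 2.7.

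The MGv to dLG call of Rarb was lost without MGv replicate 1 (log2 difference 2.69). Without dLG replicate 2, Rarb averaged 0.168 ± 0.195 CPM in dLG (SD, n = 3), and its differences were 4.46 ± 0.81 (MGv minus dLG) and 2.52 ± 0.77 (VPM minus dLG), both called. With all 3 libraries low in Hspa8 left out they were 4.17 ± 0.82 and 2.74 ± 0.78, again both called. The VPM to MGv difference was called when dLG replicate 2 or dLG replicate 3 was left out (1.94 and 1.95). Rarb also overlaps a neighbour: 38.4% of its exonic bases lie within exons of other genes, mostly of Top2b on the opposite strand (1793 bases), and 34.1% of its 50-base stretches, the length of the reads, are shared. Whether the counting used strand was not stated, so reads from this overlap cannot be assigned with certainty. Top2b, a DNA topoisomerase, was at a mean of 178 CPM in dLG, 203 in VPM and 199 in MGv and was called in no comparison.

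Rara (ENSMUSG00000037992, chromosome 11, 98927818 to 98974942, plus strand), the most widely expressed of the RAR genes, went the other way. Its values were 3.83, 4.85, 5.39 and 4.96 CPM in dLG, 5.09, 7.13, 4.34 and 5.65 CPM in VPM, and 2.85, 3.33 and 3.01 CPM in MGv. Every MGv library was below every dLG and VPM library, and dLG and VPM overlapped. VPM exceeded MGv by 0.86 ± 0.27 on the log2 scale (SE), or 1.81-fold. dLG exceeded MGv by 0.64 ± 0.27, or 1.55-fold, which was not called. The call between VPM and MGv was lost without VPM replicate 2, MGv replicate 1 or MGv replicate 3 (differences 0.71 to 0.85) and with no filter on low counts.

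Rarg (ENSMUSG00000001288, chromosome 15, 102234938 to 102257517, minus strand), best known as the receptor of skin and cartilage, was at 1.14 to 2.62 CPM in dLG and 1.33 to 1.85 CPM in VPM. In MGv its values were 3.15, 0.175 and 0.874 CPM, so that the highest and the lowest of the 11 libraries were both from MGv. The 95% interval of its log2 difference ran from -1.16 to 1.30 for dLG minus VPM, from -1.12 to 1.63 for dLG minus MGv and from -1.19 to 1.56 for VPM minus MGv. These intervals are wide enough to hold a change of 2-fold either way.

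The summed level of the RAR genes overlapped between the nuclei, while the makeup of the family differed. Their summed level was 1.58 ± 0.30 RPKM in dLG (SD, n = 4), 1.84 ± 0.37 in VPM (n = 4) and 1.78 ± 0.56 in MGv (n = 3). The ranges overlapped, and the MGv sum alone ran from 1.39 to 2.42 RPKM. Of that sum, Rarb made up 41.9% ± 5.97 in MGv, 10% ± 3.44 in VPM and 5.05% ± 5.98 in dLG. Rara made up 42.1% ± 13.0 in MGv, 69.0% ± 4.18 in VPM and 70.1% ± 10.7 in dLG. The lowest Rarb share in MGv (35.8%) was above the highest in VPM (12.9%) and in dLG (13.5%, in replicate 2). Rarg held the rest, 16.0% ± 14 in MGv, 21.0% ± 4.04 in VPM and 24.9% ± 6.44 in dLG, with ranges that overlapped. Whether reads of the overlap with Top2b were counted to Rarb was not stated. In dLG, Rarb had 0 to 33 counts and Top2b 2172 to 5125. The exon length used for Rarb includes the overlap, so its shares and the RAR sums depend on how such reads were counted, which was not tested.

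**Figure D4:**
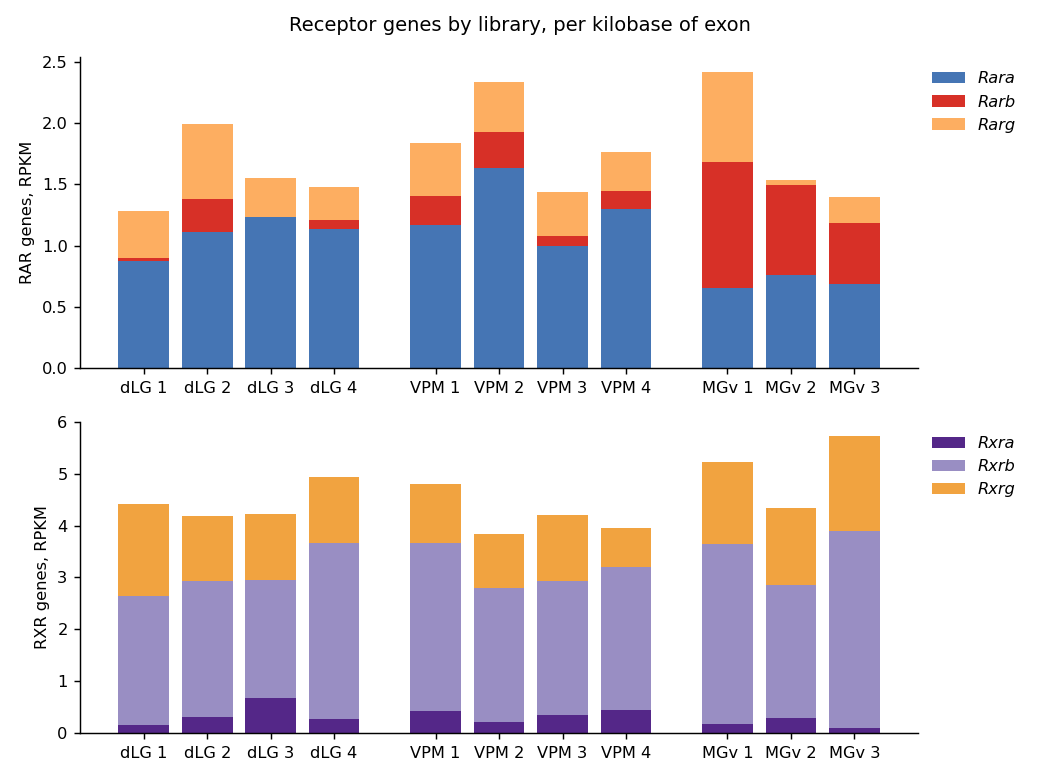
Levels of the RAR genes (top) and the RXR genes (bottom) stacked for each library, in RPKM (TMM-scaled CPM per kilobase of exon). The red part of the top bars, Rarb, is 35.8% to 47.7% of the RAR sum in MGv and at most 13.5% elsewhere, while Rxrb is the largest part of every RXR bar.

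The RXR genes, partners of the RARs and of many other nuclear receptors, were called in no comparison. Rxrb (ENSMUSG00000039656, chromosome 17, 34031812 to 34038399, plus strand) was the most abundant, at 10.7 ± 1.93 CPM in dLG, 11.1 ± 1.22 in VPM and 13.0 ± 2.58 in MGv (SD, n = 4, 4 and 3). Its values were 9.91, 10.5, 9.03 and 13.5 CPM in dLG, 12.9, 10.3, 10.3 and 11.0 CPM in VPM, and 13.8, 10.2 and 15.2 CPM in MGv. The nuclei overlapped, and each 95% interval of a log2 difference lay within 0.74 of 0, which bounds any difference of Rxrb to less than 2-fold.

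Rxrg (ENSMUSG00000015843, chromosome 1, 167598384 to 167639623, plus strand), the RXR of brain and muscle, was at 4.07, 2.88, 2.94 and 2.96 CPM in dLG, 2.64, 2.38, 2.91 and 1.76 CPM in VPM, and 3.60, 3.42 and 4.17 CPM in MGv. All MGv libraries were above all VPM libraries, by 0.62 ± 0.30 on the log2 scale (SE; 95% interval from -0.02 to 1.27), which was not called. Rxra (ENSMUSG00000015846, chromosome 2, 27676440 to 27762957, plus strand), the RXR prominent in liver and skin, was at 0.791 to 3.65 CPM in dLG, 1.12 to 2.38 CPM in VPM and 0.485 to 1.58 CPM in MGv. Its log2 difference was 0.88 ± 0.57 for dLG minus MGv and 0.90 ± 0.57 for VPM minus MGv, with intervals that included 0 and reached 2.10 and 2.12. No RXR gene was called by edgeR, DESeq2 or voom in any comparison, and 0 of 3 had an unadjusted p under 0.05 in edgeR's quasi-likelihood test. With 10.7% to 19.0% of all genes called by edgeR, nothing is read from a count of 0 among 3 genes.

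Rxrb made up 60.5% ± 6.65 of the summed RXR level per kilobase in dLG, 66.6% ± 3.44 in VPM and 64.1% ± 4.38 in MGv. Rxrg made up 31.6%, 25.1% and 32.0%, and Rxra 7.88%, 8.28% and 3.88%. The sum was 4.44 ± 0.35 RPKM in dLG, 4.20 ± 0.43 in VPM and 5.09 ± 0.70 in MGv (SD, n = 4, 4 and 3), above the RAR sum in every nucleus. Over the 11 libraries the mean levels ran from Rxrb (2.89 RPKM), Rxrg (1.33) and Rara (1.05) down to Rarg (0.372), Rarb (0.308) and Rxra (0.302).

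Cyp26b1 (ENSMUSG00000063415, chromosome 6, 84571414 to 84593908, minus strand), an enzyme that clears retinoic acid, was close to absent at this depth. It had 0 counts in all MGv libraries, which allows up to 0.228 to 0.295 CPM in each. In dLG it had 4 counts in replicate 2 and 0 in the others, and in VPM 5, 0, 4 and 7 counts, at most 0.333 CPM. No difference between the nuclei was detectable.

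Beyond these 9 genes, 59 other genes of the retinoid pathway were examined, of which 39 passed the filter on low counts. The list was drawn up with earlier results of these data known. Of the 39, 6 were called between dLG and VPM (15.4%, beside 10.7% of all genes), 5 between dLG and MGv (12.8%, beside 16.1%) and 11 between VPM and MGv (28.2%, beside 19.0%). In all, 15 genes were called in at least 1 comparison. The median log2 difference over the 39 was 0.20 (dLG minus VPM), 0.005 (dLG minus MGv) and 0.05 (VPM minus MGv).

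Among the enzymes that make retinoic acid, none of the 3 passed the filter. Aldh1a1 had at most 1.14 CPM (13 counts, MGv replicate 2), Aldh1a2 at most 0.215 CPM with 0 counts in every MGv library, and Aldh1a3 at most 0.15 CPM. The clearing enzyme Cyp26a1, by contrast, separated dLG from the other nuclei. Its values were 0.365, 0.944, 0.708 and 0.381 CPM in dLG, 6.76, 8.39, 2.48 and 6.32 CPM in VPM, and 4.05, 7.37 and 8.64 CPM in MGv. No dLG library reached any library of VPM or MGv, and VPM and MGv overlapped. In dLG the value was highest in replicate 2 and in VPM lowest in replicate 3, as for Crabp2 and Rarb.

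The log2 difference of Cyp26a1 was 3.29 ± 0.45 for VPM minus dLG (9.79-fold, adjusted p = 0.000408) and 3.44 ± 0.47 for MGv minus dLG (10.9-fold, adjusted p = 0.000269, edgeR's quasi-likelihood test). MGv and VPM differed by 0.15 ± 0.42 on this scale (adjusted p = 0.853 by edgeR). Both calls held whichever library was left out and were lost only where at least 10 counts in every library were demanded, which removes the gene. Cyp26c1, the remaining CYP26 gene, had 1 count in all libraries together.

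**Figure D5:**
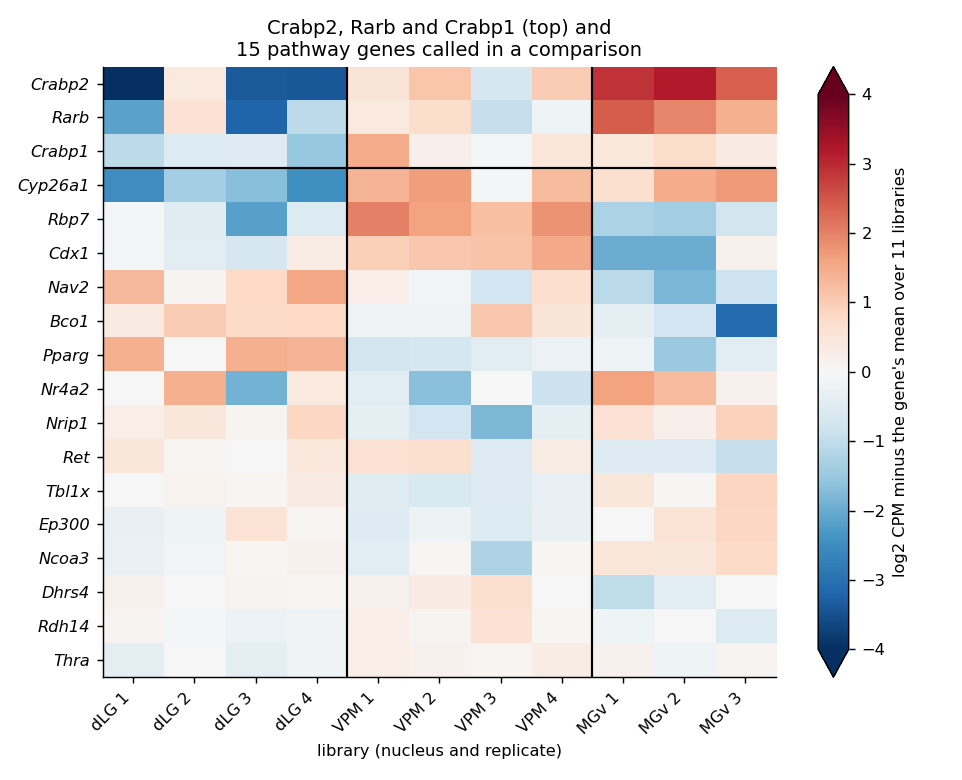
Log2 CPM of Crabp2, Rarb and Crabp1 (above the line) and of the 15 pathway genes called in at least 1 comparison, minus each gene's mean over the 11 libraries, by library; colours saturate beyond 4. Cyp26a1 is low in all 4 dLG libraries (0.365 to 0.944 CPM) as Crabp1 is, and Rbp7 is high in the 4 VPM libraries.

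Of 3 other carriers of retinoids and fatty acids, 2 were tested. Rbp7, a retinol binding protein, was higher in VPM than in either other nucleus. Its values were 3.94, 2.90, 2.17 and 3.33 CPM in VPM, 0.851, 0.601, 0.109 and 0.572 CPM in dLG, and 0.30, 0.263 and 0.486 CPM in MGv, the latter resting on 3 to 5 counts. The VPM libraries lay above all others. The log2 difference was 2.52 ± 0.50 for VPM minus dLG (adjusted p = 0.00681) and 3.13 ± 0.61 for VPM minus MGv (adjusted p = 0.00421, edgeR), and both held whichever library was left out.

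Of 14 genes of retinol uptake, storage and retinal formation, 9 were tested. Bco1, which cleaves carotene, was higher in dLG (1.47 CPM) than in MGv (0.346 CPM; adjusted p = 0.0896), a call lost without any library but VPM replicate 3 and MGv replicate 1 (adjusted p 0.109 to 0.168, edgeR). Rdh14 and Dhrs4, enzymes that interconvert retinol and retinal, were higher in VPM (104 and 7.58 CPM) than in MGv (74.8 and 4.47 CPM), with adjusted p = 0.0799 and 0.0839 in edgeR. The call of Rdh14 was lost without VPM replicate 1 or 3 or MGv replicate 1 or 3 (adjusted p 0.118 to 0.265), and that of Dhrs4 without dLG replicate 1 or 4, VPM replicate 1, 2 or 3, or MGv replicate 1 or 2 (0.102 to 0.259, edgeR). Between dLG and VPM, edgeR called 0 of the 9, beside 10.7% of all genes, with 1 at an unadjusted p under 0.05. DESeq2 called 0 there and voom 2, where voom called 4414 of all 15907 genes.

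The receptors that pair with RXR numbered 11, of which 7 were tested. Pparg, the fatty acid receptor of fat cells, was higher in dLG. Its dLG values were 2.07, 0.687, 2.07 and 1.95 CPM, against 0.370 to 0.570 CPM in VPM and 0.175 to 0.60 CPM in MGv. All dLG libraries were above the others, replicate 2 by the least. The log2 difference was 1.88 ± 0.52 for dLG minus VPM (adjusted p = 0.0418) and 1.98 ± 0.60 for dLG minus MGv (adjusted p = 0.0488, edgeR). Thra, a thyroid hormone receptor, was higher in VPM (223 CPM) than in dLG (167 CPM), by 0.42 ± 0.13 (adjusted p = 0.0682, edgeR), and Nr4a2, an orphan receptor that pairs with RXR, was higher in MGv (4.29 CPM) than in VPM (1.19 CPM), by 1.86 ± 0.65 (adjusted p = 0.075, edgeR).

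All 15 co-repressors and co-activators of the RARs were tested. Against 8.56% of all genes, 4 of these were called higher in MGv than in VPM. They were Tbl1x, a subunit of a co-repressor complex (62.3 against 31.7 CPM, adjusted p = 0.00254 in edgeR), Nrip1, a ligand-dependent co-repressor (18.9 against 7.42 CPM, adjusted p = 0.0113), Ncoa3, a co-activator (22.3 against 12 CPM, adjusted p = 0.0402), and Ep300, a histone acetyltransferase (9.95 against 5.36 CPM, adjusted p = 0.0449). Tbl1x and Nrip1 were also higher in dLG (49.1 and 16.8 CPM) than in VPM, with adjusted p = 0.032 and 0.0238 in edgeR, so that VPM was the lowest nucleus for both. Between dLG and MGv, edgeR called 0 of the 15, beside 16.1% of all genes. There, 4 had an unadjusted p under 0.05 in edgeR, while DESeq2 called 3 and voom 2. The shares of all genes for these other measures are not given, so nothing is read from the counts.

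Of 15 genes known to respond to retinoic acid, which include Cyp26a1 and Nrip1, 7 were tested, and they did not move one way. Nav2, a neuronal guidance gene induced by retinoic acid, was at 24.1 to 65.3 CPM in dLG, 13.0 to 35.6 CPM in VPM and 6.22 to 12.5 CPM in MGv. It exceeded MGv by 2.23 ± 0.39 on the log2 scale in dLG (adjusted p = 0.00193) and by 1.30 ± 0.38 in VPM (adjusted p = 0.0385, edgeR). Ret, the receptor of GDNF, was at 14.4 CPM in dLG and 15.2 in VPM against 7.74 in MGv (adjusted p = 0.0487 and 0.031, edgeR). Cdx1, a homeobox gene, was at 0.741 to 1.14 CPM in VPM, with 0, 0 and 4 counts in MGv (adjusted p = 0.068, edgeR). Relative to dLG, Cyp26a1 and Rarb were therefore high, and Nav2 and Ret low, in the same MGv libraries.

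Several of these calls depended on single libraries. By edgeR, Pparg was lost against VPM without dLG replicates 1 or 4 or VPM replicates 1 or 2 (adjusted p 0.108 to 0.131) and against MGv without dLG replicates 1 or 4 or MGv replicates 2 or 3 (0.102 to 0.155). Thra was lost without any of 6 libraries, those of dLG and VPM other than dLG replicate 2 and VPM replicate 3 (0.113 to 0.186 by edgeR). Between VPM and MGv, Nr4a2 was lost without VPM replicates 1, 2 or 4 or MGv replicates 1 or 2 (0.123 to 0.225), Cdx1 without VPM replicates 2 or 4 or MGv replicates 1 or 2 (0.111 to 0.198), and Ep300 without VPM replicate 1 or MGv replicates 2 or 3 (0.106 to 0.194). Nav2 was lost between VPM and MGv without MGv replicate 2 (0.134), and Ncoa3 and Ret there without MGv replicate 3 (0.152 and 0.12). Ret against dLG was lost without dLG replicates 1 or 4 or MGv replicate 3 (0.111 to 0.18). Tbl1x between dLG and VPM was lost without dLG replicate 4 or VPM replicate 2 (0.104 to 0.106 by edgeR). With all 3 libraries low in Hspa8 left out, the calls between VPM and MGv of Nr4a2 (adjusted p = 0.111), Cdx1 (0.204), Rdh14 (0.207) and Dhrs4 (0.365) were lost, while Nav2 between dLG and VPM (0.0573) and Ncoa3 between dLG and MGv (0.0899) were gained (edgeR). Some calls were gained without a single library. Between dLG and VPM, Nav2 was called without dLG replicate 2 or VPM replicate 4 (adjusted p 0.0445 to 0.0687 by edgeR) and Cdx1 without MGv replicate 3 (0.099), and between dLG and MGv, Tbl1x was called without MGv replicate 2 (0.0708), Ncoa3 without VPM replicate 3 (0.043) and Cdx1 without MGv replicate 3 (0.0489). Nrip1 in both of its comparisons, Tbl1x between VPM and MGv and Nav2 between dLG and MGv held whichever library was left out.

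The genes whose profile was most like that of a member were sought among 11030 genes with at least 5 CPM in a nucleus, by Pearson's r of log2 CPM over the 11 libraries, for the 3 members that varied most between nuclei among those with at least 5 CPM in a nucleus, which leaves out Rarb. These correlations describe the libraries, which share nuclei and depth. Those closest to Crabp2 were Phf24 (r = 0.972), Mbp (0.969) and Tacr3 (0.968). Mbp, a myelin protein gene, was at 5.24 to 20.0 CPM in dLG, 25.0 to 30.7 CPM in VPM and 62.3 to 71.3 CPM in MGv, again with replicate 2 the highest of dLG. Over the 5 markers of the oligodendrocyte lineage the summed level was 12.1 to 30.0 CPM in dLG, 32.7 to 43.0 in VPM and 74.8 to 85.8 in MGv, mostly from Mbp. Sox10, which defines that lineage, had 0 counts in all libraries of dLG and MGv. The glutamate transporter gene Slc1a3 of astrocytes and radial glia moved the same way, at 45.4 to 90.2 CPM in MGv against 1.09 to 17.9 CPM in dLG and 3.22 to 10.3 in VPM, while Fabp7, the most abundant marker of that list, was at 11.9 to 76.8 CPM in MGv, 29.2 to 121 in dLG and 46.3 to 103 in VPM, and Aqp4 stayed at 1.58 CPM or less. The summed level of the 6 astrocyte markers overlapped between the nuclei (48.8 to 134 CPM in dLG, 55.8 to 118 in VPM and 59.5 to 174 in MGv). The part of these genes in the levels of Crabp2 and Rarb was not tested.

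Among those closest to Crabp1 were Lrrtm4 (r = 0.923) and Tle4 (0.921), both with a mean in dLG below those of VPM and MGv. Tle4, a co-repressor, was at 5.47 CPM in dLG, 32.2 in VPM and 27.0 in MGv. Those closest to Rara were Dyrk2 (r = 0.961), Elavl2 (0.939) and Ube2d1 (0.935), each lowest in MGv. Dyrk2, a protein kinase gene, was at 39.8 CPM in dLG, 43.7 in VPM and 24.1 in MGv.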

How the data were processed

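The authors trimmed single-end reads of 50 bases from SMARTer-amplified cDNA (cutadapt 2.3, Trim Galore 0.6.1), aligned them with STAR 2.7.0d to mm10 and counted reads per Ensembl gene (release 95) with featureCounts of Subread 1.6.4. The deposited values are these raw counts, 1 library per sample. The use of strand and of reads with several alignments was not stated.

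Groups and replicate numbers came from the sample titles. Symbols, positions (1-based) and exon lengths were read from GENCODE M21, on the same build as the counts, which has 54723 of the 54752 identifiers. The edgeR quasi-likelihood test (edgeR 4.0.16, R 4.3.3; limma 3.58.1) was run on all 11 libraries with 3 group means, TMM scaling and filterByExpr (15907 of 33170 genes with at least 1 count), two-sided, with Benjamini-Hochberg adjustment over all genes tested and a threshold of 0.1, the one the study used with DESeq2. RPKM values are TMM-scaled CPM per kilobase of exon, and log2 CPM values used a prior count of 2. DESeq2 1.42.0 was an alternative. The fit was checked on simulated counts with 100 genes changed 2-fold and 100 changed 4-fold between dLG and MGv. It recovered 40% and 69% of them, so a gene not called may still differ. Of the genes it called, 6% were not changed ones. The simulated counts were independent draws with edgeR's own estimates of spread. They held no libraries low in Hspa8 and no shift of dLG replicate 2, so the 6% is not an error rate of these data.

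The members, gene lists and tests were chosen with earlier results of these data known. Named genes are the members, each pathway gene called in at least 1 comparison (at most 15), markers that move with a result, and the 3 genes most like each of 3 members, of which 1 is not reported here; Top2b was named for its overlap with Rarb and Aldh1a1, Aldh1a2, Aldh1a3 and Cyp26c1 for their role. Each library is a pool of 4 brains, and since the labels do not tie libraries to animals, p-values measure only the spread between these libraries. Marker lists not described above had summed levels of at most 5.15 CPM (GABAergic), 5.44 (cortical or hippocampal), 7.95 (habenula), 1.84 (midbrain), 18.9 (microglia), 6.62 (endothelial), 7.32 (meningeal), 1.5 (choroid plexus) and 466 (red blood cell, in dLG).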

Additional observations from a re-analysis of the deposited data

Results flagged for a closer look

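In sets of 4 values for a gene in dLG or VPM, 4 of 48 held a library far from the other 3, with a gap over 0.829 of the range (Dixon's 95% critical value). Chance gives about 1 in 20 for independent, normally distributed values, whereas these sets share libraries. Crabp2 in dLG replicate 2 was 102.9 CPM, the others being 4.87 to 7.67. Rxrg in dLG replicate 1 was 4.07 CPM, the others 2.88 to 2.96. Cyp26b1 in dLG replicate 2 was 0.172 CPM, from 4 counts, and 0 in the others. A set with 3 values of 0 and a count at or above the floor always passes this rule, so nothing is read from that flag. Pparg in dLG replicate 2 was 0.687 CPM, the others 1.95 to 2.07. Apart from the Cyp26b1 flag, those of Crabp2 and Pparg were in dLG replicate 2, 1 of the libraries low in Hspa8, and that of Rxrg was not.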

How the results depend on the processing

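The alternatives were another test (DESeq2, voom with sample weights), another scaling, another filter, a replicate block, a term for the 3 libraries low in Hspa8, those left out, only the nuclei compared, and each library left out. None reversed a call. The genes of the set called between dLG and VPM numbered 3 with voom, 2 with no count filter, 2 with the term for low Hspa8 and 3 without those libraries, in place of 1. All genes called there numbered 4414 with voom and 2618 without those libraries (1704 as reported), and pathway genes 12, 10, and 3 with at least 10 counts in every library (6 as reported). Between dLG and MGv, pathway genes numbered 8 with DESeq2, 8 with the term, 8 without those libraries and 2 with at least 10 counts (5 as reported). With single libraries left out, all genes called ranged from 1093 to 2223 (dLG and VPM), 1886 to 3300 (dLG and MGv) and 2024 to 3235 (VPM and MGv). The set's own counts ranged from 1 to 3, 2 to 3 and 0 to 3, reaching 0 without VPM replicate 2, MGv replicate 1 or MGv replicate 3, and pathway genes from 3 to 9, 2 to 9 and 6 to 11. The lowest counts came without VPM replicates 1 or 2 (all genes, dLG and VPM), without dLG replicate 4 or VPM replicate 2 (3 pathway genes), without dLG replicates 1 or 4 (2 pathway genes, dLG and MGv; 9 without VPM replicate 3) and without MGv replicate 2 (6). Without exon length, Rxrb was 67.6% (dLG), 72.0% (VPM) and 72.9% (MGv) of the RXR sum. The shallower MGv libraries limit genes near the floor.

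With the replicate block, 2 genes of the set were called between dLG and VPM, Crabp2 being added. Same-numbered libraries of different nuclei correlated between -0.20 and 0.48 in their deviations from nucleus means (10 pairs, mean 0.02) and others between -0.31 and 0.27 (30 pairs). Such correlations cannot settle whether same-numbered libraries came from the same brains, which the labels do not give. The block moved no other count of calls by over 1.5 times.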
